A study of Mus musculus with 10 samples.

Results

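The genes of calcium/calmodulin-dependent kinase II (CaMKII), of the phosphatase calcineurin and of the transcription factor NFAT were followed in the left atrium of mice under pressure overload. The set was chosen by name and holds 10 of the 48397 gene symbols counted. They are the CaMKII subunit genes Camk2a, Camk2b, Camk2d and Camk2g, the calcineurin catalytic genes Ppp3ca and Ppp3cb with the regulator Rcan1, and the NFAT genes Nfatc1, Nfatc2 and Nfatc4. All 10 passed the filter on low counts, which kept 15175 genes for testing.

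RNA from the left atrium was sequenced in bulk in 5 sham and 5 TAC libraries. TAC (transverse aortic constriction) narrows the aortic arch, so that the left ventricle pumps against a higher pressure and the left atrium behind it is loaded as well. The TAC group were wild-type mice whose aorta was constricted at 2 months of age, and the sham group were wild-type mice of the same age that had sham surgery. Tissue was taken 2 weeks later in both groups. The design text of the series gives the mice as C57BL/6J males. For tissue and kit it gives the left appendage and TruSeq, but the labels of the samples give left atrium and Nugen Trio low-input, and which applies is not known here. Nothing in the labels ties a library to an animal of its own. The p-values therefore reflect variation among libraries alone, some of which may be technical.

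CaMKII is a kinase of many subunits that calcium-bound calmodulin switches on and that phosphorylates calcium-handling proteins and class IIa histone deacetylases. In heart muscle its subunits come chiefly from Camk2d and Camk2g, whereas Camk2a and Camk2b are best known from neurons. Calcineurin, also switched on by calmodulin, removes phosphate from NFAT proteins, which then enter the nucleus. This route is known as a driver of cardiac hypertrophy, and Rcan1 is both an inhibitor of calcineurin and one of its transcriptional targets.

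All 4 CaMKII genes were lower after TAC, Camk2a far more than the others. Ppp3cb, Nfatc1 and Nfatc2 were also lower. Ppp3ca, Rcan1 and Nfatc4 were not called. With edgeR's quasi-likelihood test and a Benjamini-Hochberg adjusted p under 0.05, 7 of the 10 genes were thus called lower and 0 higher, and none was called higher by limma voom either. Of the 3 genes not called, Nfatc4 had an unadjusted p of 0.034 and Rcan1 one of 0.091, and DESeq2 called 1 gene higher (Nfatc4). Over all genes tested, 27.9% were called lower and 28.9% higher. The median log2 fold change of the 10 genes was -0.52, beside 0.01 over all genes tested. The groups did not overlap in 5 of the 10 genes (Camk2a, Camk2b, Camk2d, Camk2g and Ppp3cb), and all 5 had TAC lower. Of all genes tested, 41.7% did not overlap, and 20.2% did not overlap with TAC lower. The edgeR values above rest on TMM factors for the scaling between libraries. With library size as the only scaling, 2 of the 10 genes were called lower (Camk2a and Camk2b) and 2 higher (Ppp3ca and Nfatc4). Of all genes tested, 12.7% were then called lower and 51.0% higher.

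**Figure D1:**
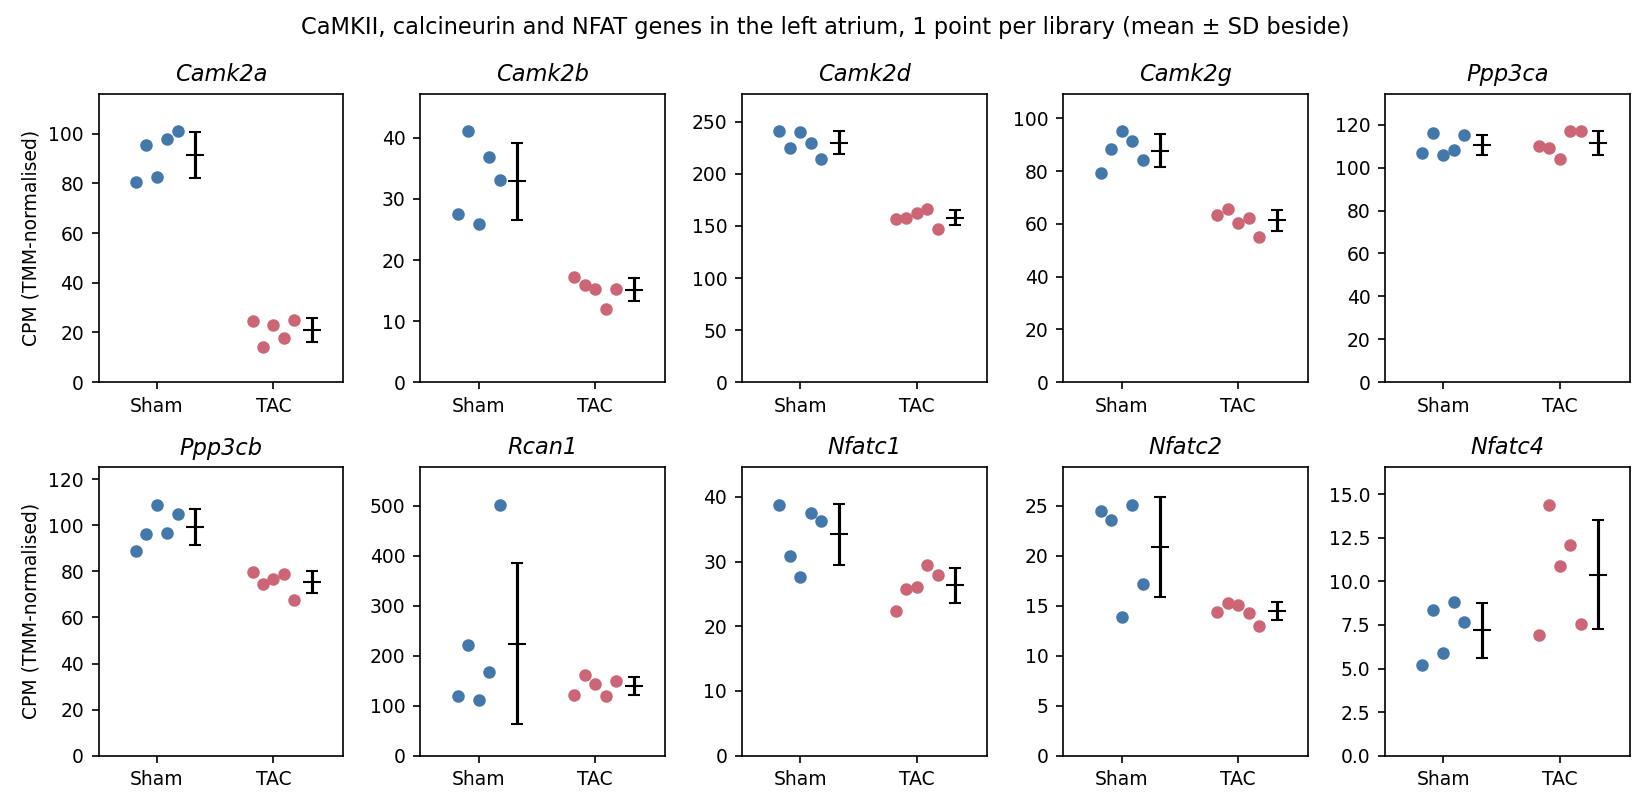
Each panel shows the TMM-normalised CPM (y axis, from 0) of 1 gene in the 5 sham (blue) and 5 TAC (red) libraries, 1 point per library, with the mean and SD beside the points. The groups stand apart in the 4 CaMKII genes and in Ppp3cb, and 1 sham library carries Rcan1 at 502 CPM.

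The libraries held 17117306 to 43956384 counts over genes, and sham replicates 1 and 2 were the shallowest. Scaling by TMM factors set the median log2 fold change of all genes to 0.01, and scaling by library size alone set it to 0.37. Heart muscle markers moved with the groups. All 8 cardiomyocyte markers were called lower after TAC, and their summed level was 70600 to 84200 CPM in sham and 29100 to 41600 CPM in TAC. The markers of the labelled tissue were present: of 8 atrial muscle markers 5 were lower and 1 was higher, with sums of 28600 to 31600 and 19300 to 23900 CPM. Of 8 fibroblast markers 6 were higher and 1 lower (1990 to 2650 and 5740 to 13500 CPM), all 7 macrophage markers were higher (254 to 461 and 667 to 1140 CPM), and all 6 cell cycle genes were higher (2.40 to 18.9 and 122 to 423 CPM). In bulk tissue, fewer cells of a type and less RNA per cell cannot be told apart. The part of these shifts in the changes of the 10 genes was not tested.

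Camk2a, which encodes the alpha subunit (chromosome 18, 60925618 to 60988152 in GRCm38, plus strand), showed the largest fall of the set. Its CPM (counts relative to the TMM-scaled library size) was 80.7, 95.3, 82.7, 97.7 and 101 in sham replicates 1 to 5, and 24.5, 14.0, 23.0, 17.8 and 25.2 in TAC replicates 1 to 5. Every TAC library lay far below every sham library. The mean fell from 91.5 ± 9.14 to 20.9 ± 4.82 CPM (SD, n = 5 libraries per group), or to 22.9% of sham. The log2 fold change was -2.13 (SE 0.15, 95% interval -2.47 to -1.79, edgeR adjusted p = 1.8e-06), and 1.74% of all genes tested had a value as low or lower. Leaving out each library in turn gave -2.19 to -2.0.

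Neuronal and glial markers, which mark the nerve cells where Camk2a is best known, were low in these libraries. The 8 neuron markers summed to 4.64 to 9.99 CPM in sham and 7.05 to 11 CPM in TAC, and 2 of the 4 that could be tested were called higher and none lower. Chat, the enzyme of acetylcholine synthesis, was at 0 in all 10 libraries, and Snap25, a synaptic vesicle fusion protein, was at most 0.0296 CPM. The 4 glia markers summed to 8.26 to 13.2 CPM in sham and 3.46 to 7.08 CPM in TAC, with 2 of 3 tested called lower. The 9 skeletal muscle markers summed to 728 to 991 CPM in sham and 214 to 747 CPM in TAC. Ckm made up the largest part of that sum in every library, so the sum mainly follows this gene. Of the 9 markers 4 were tested. Acta1 (3.70 ± 2.48 and 104.1 ± 107 CPM) and Tnni2 (9.69 ± 3.95 and 28.9 ± 17.9 CPM) were called higher and Ckm (837.7 ± 122 and 201.9 ± 124 CPM) lower. The myosin genes Myh1, Myh2 and Myh4 were at most 0.976 CPM, with every TAC library above every sham library, and Myod1 and Pax7 were at 0 in all libraries. The part of these markers in the Camk2a result was not tested. The Camk2a gene also encodes a muscle anchoring protein without a kinase domain (alpha-KAP), and counts per gene do not separate it from the kinase.

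Camk2b, the beta subunit gene (chromosome 11, 5969644 to 6066362, minus strand), was the least abundant CaMKII gene per length. Its CPM was 27.5, 41.1, 25.9, 36.8 and 33.1 in sham and 17.3, 15.9, 15.3, 12 and 15.3 in TAC. The lowest sham library stood above the highest TAC library. The mean went from 32.9 ± 6.33 to 15.2 ± 1.97 CPM, 46.1% of sham (log2 fold change -1.12, SE 0.14, edgeR adjusted p = 4.6e-05). Camk2a and Camk2b were the members with a called log2 fold change of -1 or lower, which 8.10% of all genes tested had.

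Camk2d and Camk2g, the delta and gamma subunit genes, fell by less and by like amounts. Camk2d (chromosome 3, 126596302 to 126846326, plus strand) stood at 241, 225, 240, 230 and 214 CPM in sham and at 157, 158, 162, 166 and 147 CPM in TAC. Camk2g (chromosome 14, 20734875 to 20794088, minus strand) stood at 79.4, 88.6, 95.2, 91.5 and 84.3 CPM in sham and at 63.4, 65.7, 60.5, 62.3 and 54.9 CPM in TAC. Neither gene overlapped between groups, and the libraries of each group lay close together. Camk2d went to 68.6% of sham (log2 fold change -0.54, SE 0.07, edgeR adjusted p = 3.9e-05). Camk2g went to 69.9% of sham (log2 fold change -0.52, SE 0.07, edgeR adjusted p = 9.5e-05). With library size as the only scaling, all 4 CaMKII genes kept a negative sign, but of the 10 genes 2 were then called lower (12.7% of all genes tested) and 2 higher (51.0%). Camk2d (-0.19, edgeR adjusted p = 0.066) and Camk2g (-0.16, adjusted p = 0.081) were no longer called. Relative to the median of all genes under that scaling, the differences were -2.13 for Camk2a, -1.13 for Camk2b, -0.55 for Camk2d and -0.52 for Camk2g. Taking off that median treats the typical gene as unchanged, much as TMM scaling does. The nearness of these differences to the TMM values follows from that and is no separate check.

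**Figure D2:**
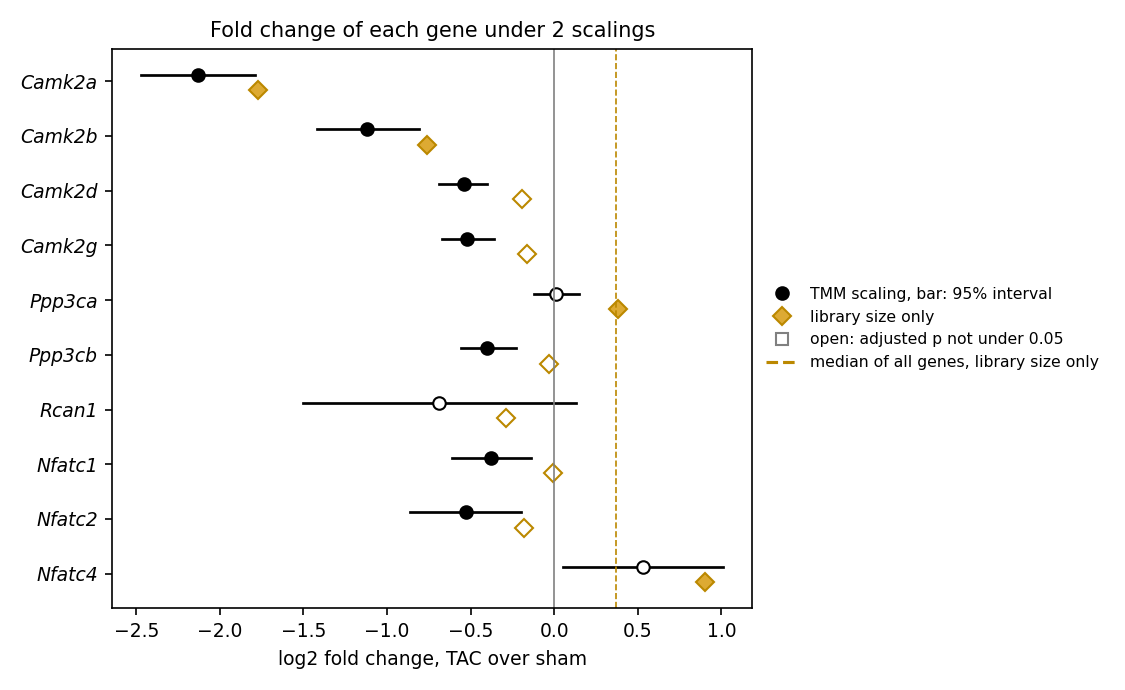
The x axis gives the log2 fold change, TAC over sham, of each of the 10 genes, as black points with 95% intervals (TMM scaling) and as yellow diamonds (library size only); open symbols did not reach an adjusted p under 0.05 and the dashed line is the median of all genes at 0.37. Camk2a and Camk2b lie below 0 and are filled under both scalings, whereas Ppp3ca and Nfatc4 are called higher when scaled by library size only.

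Because the subunits assemble together, the make-up of the family was compared as shares of the reads per kilobase (kb) of exon of the 4 genes. A share within a library does not depend on the scaling between libraries. Within the 3 families 9 such shares and ratios were tested, by exact two-sided permutation over all regroupings of the libraries, where the smallest possible p is 0.0079. The share of Camk2a fell from 30.8 ± 2.23% to 13.3 ± 3.07%, with sham libraries at 28.1 to 33.9% and TAC libraries at 8.99 to 16.8% (exact p = 0.0079, adjusted over the 9 tests p = 0.014). The share of Camk2g rose from 34.5 ± 1.86% to 45.5 ± 2.54% and that of Camk2d from 25.8 ± 2.19% to 33.3 ± 1.46% (exact p = 0.0079 and adjusted p = 0.014 for each). For all 3 shares the groups did not overlap. The 4 shares add up to the whole, so a fall in the share of Camk2a must raise the sum of the others. These tests are therefore not independent, and the 2 rises are relative. In CPM, Camk2d and Camk2g themselves went to 68.6% and 69.9% of sham. The share of Camk2b was 9.02 ± 1.43% and 7.88 ± 0.928% and overlapped (exact p = 0.20, adjusted p = 0.30).

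The proportion of Camk2d to Camk2g did not differ beyond its spread. The log2 ratio of their reads per kb was -0.422 ± 0.119 in sham and -0.448 ± 0.0754 in TAC, a difference of -0.0261 that was smaller than the spread in either group (exact p = 0.75). Without sham replicate 1 this difference was 0.0271. The sum over the 4 genes went from 39.8 ± 1.83 to 21.1 ± 0.709 CPM per kb of exon, 52.9% of sham. Unlike the shares, this percentage depends on the scaling between libraries as well as on the lengths. With library size only, the 4 genes fell by less, with log2 fold changes of -1.77 (Camk2a), -0.76 (Camk2b), -0.19 (Camk2d) and -0.16 (Camk2g). Which gene leads depends on the length used. Camk2d has 22493 bases of exon in the annotation, but 5524 in its longest coding transcript. By the longest coding transcript, a length chosen after the data were seen, Camk2d made up 45.3% in sham and 53.8% in TAC, Camk2g 25.8% and 31.2%, and Camk2a 20% and 7.94%. By that length the rise of Camk2g was 5.4 percentage points rather than 11, and by raw reads it was 4.18.

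**Figure D3:**
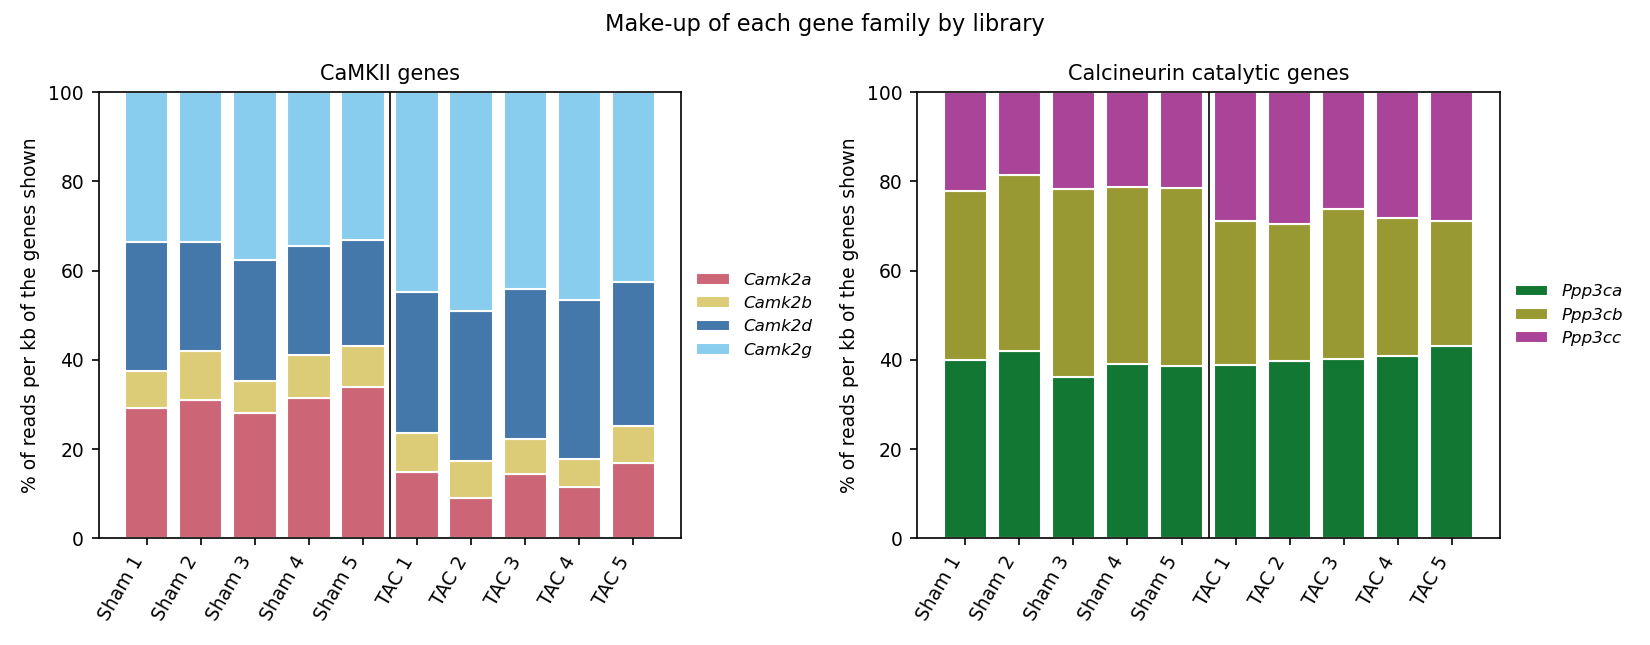
Stacked bars give, for each of the 10 libraries, the share in percent of the reads per kb of exon from each CaMKII gene (left) and from each calcineurin catalytic gene (right). Camk2a takes 28.1 to 33.9% of the CaMKII bar in sham libraries and 8.99 to 16.8% in TAC libraries, and Ppp3cb takes 37.8 to 42.1% and 28.2 to 33.5% of the calcineurin bar.

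Of the calcineurin catalytic genes, Ppp3ca did not differ beyond its spread and Ppp3cb was lower after TAC. Ppp3ca (alpha isoform, chromosome 3, 136670124 to 136937727, plus strand) had 107, 116, 106, 108 and 115 CPM in sham and 110, 109, 104, 117 and 117 CPM in TAC. The groups overlapped almost fully, with means of 110.4 ± 5.02 and 111.5 ± 5.60 CPM. The log2 fold change was 0.01 (SE 0.06, 95% interval -0.12 to 0.15, edgeR adjusted p = 0.86), and with library size as the only scaling it was 0.38 and called (adjusted p = 0.00095).

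Ppp3cb (beta isoform, chromosome 14, 20499364 to 20546573, minus strand) had 89.0, 96.4, 109, 96.8 and 105 CPM in sham and 79.9, 74.4, 76.6, 78.7 and 67.8 CPM in TAC. No TAC library reached the lowest sham library. The log2 fold change was -0.40 (SE 0.07, edgeR adjusted p = 0.00076), or 76.0% of sham, and -0.03 with library size only (adjusted p = 0.67). The log2 ratio of Ppp3ca to Ppp3cb within a library, which does not depend on scaling, rose by 0.407, from -0.0238 ± 0.128 to 0.384 ± 0.137 (exact p = 0.0079, adjusted p = 0.014). Sham libraries lay at -0.225 to 0.0927 and TAC libraries at 0.262 to 0.607, without overlap.

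The remaining catalytic gene, Ppp3cc, and the regulatory subunit gene Ppp3r1 went opposite ways. Ppp3cc, which is no member and was looked at after its values were seen, went from 17.8 ± 1.52 to 23.4 ± 1.77 CPM (log2 fold change 0.39, SE 0.08, edgeR adjusted p = 0.0021). Ppp3r1, whose product binds calcium in the calcineurin dimer, went from 92.4 ± 6.02 to 69.2 ± 5.90 CPM (log2 fold change -0.42, SE 0.08, edgeR adjusted p = 0.00061; -0.06 and not called with library size only), and 14.31% of its exonic bases are shared with Wdr92. As shares of the 3 catalytic genes per kb, Ppp3ca made up 39.1% in sham and 40.5% in TAC, Ppp3cb 39.8% and 31.1%, and Ppp3cc 21.1% and 28.4%. The sum of the 3 was 28.3 ± 1.32 and 27.6 ± 1.11 CPM per kb, 97.4% of sham, a percentage that depends on the TMM scaling and the exon lengths.

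Rcan1 (chromosome 16, 92391953 to 92470867, minus strand) was the most abundant of the 10 genes per kb and the one with the widest spread. RefSeq gives it 2 starts, an upstream one and an internal one that calcineurin and NFAT are known to drive. The 250 bases before each start, from RefSeq on GRCm38.p6, are shown because counts per gene add up the reads of both. Capitals mark matches, on either strand, to the NFAT core motif GGAAA.
Rcan1 upstream start, chr16:92466170-92466419, minus strand: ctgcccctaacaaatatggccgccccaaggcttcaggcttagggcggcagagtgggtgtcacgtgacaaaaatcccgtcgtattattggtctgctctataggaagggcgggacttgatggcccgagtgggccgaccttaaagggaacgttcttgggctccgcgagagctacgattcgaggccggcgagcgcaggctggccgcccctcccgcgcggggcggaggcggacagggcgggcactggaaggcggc
Rcan1 internal start, chr16:92400079-92400328, minus strand: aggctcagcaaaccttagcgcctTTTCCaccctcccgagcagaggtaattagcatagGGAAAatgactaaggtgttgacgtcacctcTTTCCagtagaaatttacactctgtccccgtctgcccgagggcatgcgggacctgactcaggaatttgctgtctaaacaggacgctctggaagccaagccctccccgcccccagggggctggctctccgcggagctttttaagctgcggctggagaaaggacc

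The internal window held 3 matches to GGAAA, which began 227, 193 and 163 bases before the start, 1 match to the AP-1 motif TGANTCA and 2 to the CRE core TGACG, both strands read. The 2 TGACG matches, 175 and 172 bases before the start, overlap on opposite strands and form 1 site, TGACGTCA. The upstream window held 0 matches to each motif. Of 32851 RefSeq promoters read over the same 250 bases, 55.6% held at least 1 GGAAA and 6.39% at least 3, 6.75% held TGANTCA and 17.8% held TGACG. Promoter entries were matched for 6 of the 10 genes (Camk2b, Camk2d, Ppp3cb, Rcan1, Nfatc2 and Nfatc4), in 8 windows. GGAAA was found 0 times for Camk2b, 1 time for Camk2d, 3 times for Ppp3cb and for Nfatc4, and 1 and 3 times for the windows of Nfatc2. A match describes the letters only.

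Rcan1 counts stood at 120, 221, 111, 167 and 502 CPM in sham and at 122, 162, 143, 119 and 150 CPM in TAC. Sham replicate 5 was far above all other libraries, and the other sham libraries covered the whole range of the TAC group. The means were 224.3 ± 161 and 139.2 ± 18.4 CPM. The log2 fold change of -0.69 (SE 0.37, 95% interval -1.50 to 0.13) did not pass the test (edgeR adjusted p = 0.14), and without sham replicate 5 it was -0.16 (adjusted p = 0.52). Set against the summed catalytic genes Ppp3ca and Ppp3cb, the log2 ratio of reads per kb was 1.47 ± 0.839 in sham and 1.18 ± 0.233 in TAC (exact p = 0.58, adjusted p = 0.65). That difference of -0.282 turned to 0.051 without sham replicate 5.

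The genes whose profile lay closest to that of Rcan1 were picked after its values were seen, by the smallest root mean square (RMS) difference of centred log2 CPM over the 10 libraries among 11892 genes. That they peak in the same library as Rcan1 follows from this choice. Ell2, a transcription elongation factor, came first with a difference of 0.124, beside a median of 0.674 over all genes compared. Its CPM was 19.7, 38.5, 19.6, 26.2 and 73.5 in sham. Ifrd1 (0.247) and the heat shock gene Hsp90aa1 (0.253) followed, with 108 and 592 CPM in sham replicate 5. Lmcd1, a calcineurin partner of the Z-disc, ran in the same order in sham, at 87.0, 183, 46.0, 161 and 384 CPM, but was called lower after TAC (33.8 to 68.0 CPM; log2 fold change -1.94, SE 0.48, edgeR adjusted p = 0.0052). The ventricular light chain Myl2 was 23.8, 11.6, 0.881, 47.1 and 218 CPM in sham and 1.82 to 10.1 CPM in TAC. Of the other ventricular markers, Myl3 was 319 CPM in sham replicate 5 but also 315 CPM in TAC replicate 5, Hey2 was 1.47 to 1.55 CPM in all sham libraries and called higher in TAC (2.07 to 2.85 CPM), and Irx4 was at most 0.938 CPM. Of these 4 markers, Myl2, Myl3 and Irx4 were thus highest in sham replicate 5 and Hey2 was not. The part of this library's make-up in its Rcan1 level was not tested.

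**Figure D4:**
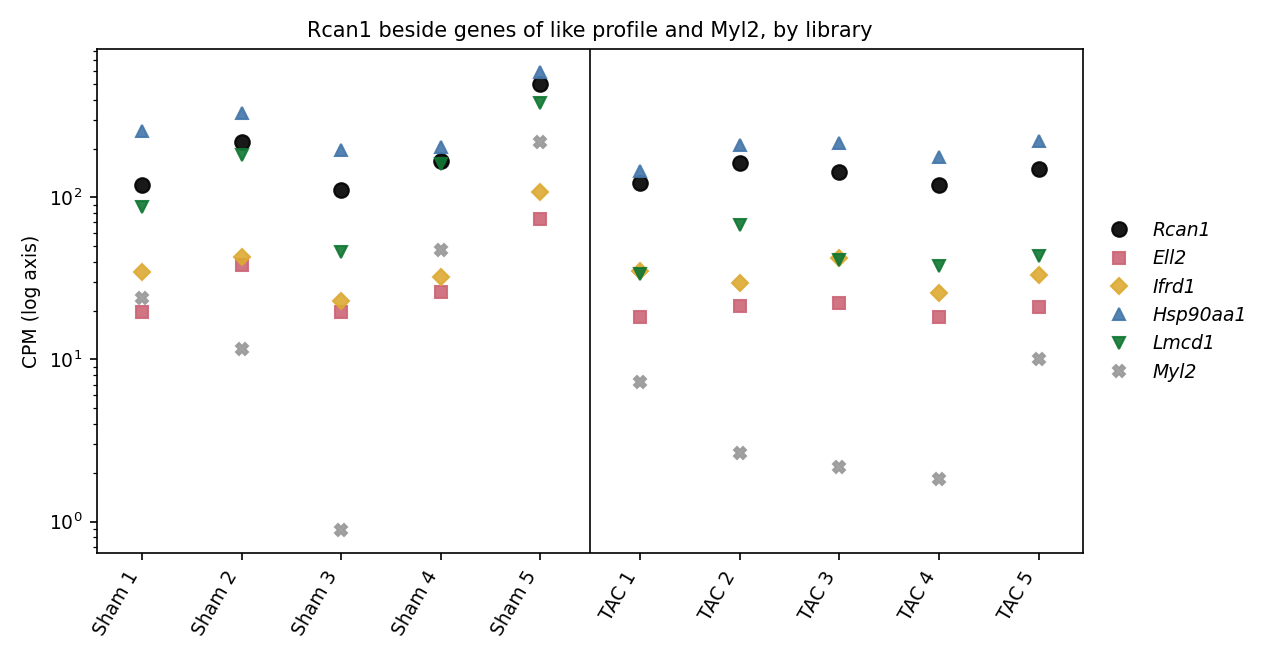
CPM on a log axis of Rcan1, of the 3 genes closest to it in profile (Ell2, Ifrd1 and Hsp90aa1), of Lmcd1 and of the ventricular marker Myl2, in each of the 10 libraries. The genes were chosen after the values were seen. The 3 closest ones were picked for their likeness to Rcan1, so their peak in sham replicate 5 (Rcan1 at 502 CPM) restates that choice. Lmcd1 (384 CPM) and Myl2 (218 CPM) were also highest there but were not picked by likeness of profile.

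Among the NFAT genes, Nfatc1 and Nfatc2 were modestly lower after TAC and Nfatc4 had a higher mean that was not called. Nfatc1 (chromosome 18, 80606205 to 80713071, minus strand), known for its part in valve formation, had 38.8, 30.9, 27.6, 37.5 and 36.2 CPM in sham and 22.3, 25.8, 26.1, 29.5 and 28 CPM in TAC. Nfatc2 (chromosome 2, 168476410 to 168601657, minus strand), known best from T cells, had 24.5, 23.6, 13.9, 25.1 and 17.2 CPM in sham and 14.4, 15.3, 15.1, 14.3 and 13 CPM in TAC. In both genes sham replicate 3 was the lowest of its group and fell among the TAC libraries. Nfatc1 had a log2 fold change of -0.38 (SE 0.11, edgeR adjusted p = 0.010) and Nfatc2 one of -0.53 (SE 0.15, adjusted p = 0.011). Neither was called with library size only, where they were -0.01 (adjusted p = 0.94) and -0.18 (adjusted p = 0.38). Without the 2 shallow sham libraries Nfatc2 was not called either (-0.39, adjusted p = 0.082).

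Markers of cell types in which these genes are best known were checked beside them. The 7 T lymphocyte markers summed to 1.28 to 4.04 CPM in sham and 1.43 to 5.12 CPM in TAC, and of the 3 tested 1 was called higher. The 4 endocardial markers summed to 749 to 1510 CPM in sham and 882 to 1590 CPM in TAC, with 2 called higher (Emcn and Vwf) and none lower. Plvap was not called (log2 fold change 0.28, edgeR adjusted p = 0.12). Npr3 was not called either but had a lower mean in TAC (411.1 ± 156 and 251.9 ± 82.2 CPM, log2 fold change -0.71, edgeR adjusted p = 0.054).

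Nfatc4 (chromosome 14, 55823144 to 55833943, plus strand), which has been linked to cardiac hypertrophy, was the least abundant of the 10 genes per kb in sham. Its CPM was 5.21, 8.37, 5.87, 8.81 and 7.65 in sham and 6.94, 14.4, 10.9, 12.1 and 7.55 in TAC. TAC replicates 1 and 5 lay within the sham range and the other 3 above it. The mean was 7.18 ± 1.57 CPM in sham and 10.4 ± 3.13 CPM in TAC, with a log2 fold change of 0.53 (SE 0.22) just short of the threshold (edgeR adjusted p = 0.059). Among other fits, it passed with DESeq2 (adjusted p = 0.040), with upper-quartile factors (0.041), with library size only (0.90, adjusted p = 0.0042), and without sham replicate 4 (0.048), TAC replicate 1 (0.017) or TAC replicate 5 (0.031). Over the libraries left out in turn, its log2 fold change ran from 0.40 to 0.66.

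Relative to Nfatc2, Nfatc4 was higher in every TAC library than in any sham library. The log2 ratio of their reads per kb was -0.666 ± 0.419 in sham (-1.36 to -0.302) and 0.338 ± 0.396 in TAC (-0.187 to 0.778), with exact p = 0.0079 and adjusted p = 0.014. The ratio of Nfatc1 to Nfatc2 was 1.24 ± 0.286 and 1.37 ± 0.201 on the log2 scale and overlapped (exact p = 0.41, adjusted p = 0.53).

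Per kb of exon, the sham levels ran from Rcan1 at 72.7 ± 52.3 CPM per kb through Camk2g (13.7 ± 0.962), Camk2a (12.3 ± 1.22), Ppp3cb (11.3 ± 0.895), Ppp3ca (11.1 ± 0.503) and Camk2d (10.2 ± 0.497) to Nfatc1 (4.58 ± 0.636), Camk2b (3.60 ± 0.693), Nfatc2 (1.97 ± 0.472) and Nfatc4 (1.24 ± 0.271). Neighbours in this order from Camk2g to Camk2d, Nfatc1 and Camk2b, and Nfatc2 and Nfatc4 differed by less than the sum of their SDs. By the longest coding transcript Camk2d came second, at 41.6 ± 2.02 CPM per kb. In TAC, Ppp3ca was second at 11.2 ± 0.561 and Camk2a was seventh at 2.80 ± 0.646 CPM per kb.

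The other genes of the 3 routes, on 6 lists of 67 genes, changed in both directions. Of the 61 that were tested, 20 were called higher and 23 lower, with a median log2 fold change of -0.10. With library size only, 30 were higher and 15 lower. Over all genes tested, 28.9% were called higher and 27.9% lower with TMM scaling, and 51.0% and 12.7% with library size only. The counts of each list below are to be read beside these shares. Ppp3r2, Myoz3, Nron, Camkv, Pcp4 and Mef2b had too few counts to be tested. The genes named from these lists kept their sign under library size.

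Of 14 calcineurin partners 6 were higher and 5 lower (median 0.02), or 7 and 3 with library size only. The cyclophilin gene Ppia, whose product binds calcineurin when loaded with cyclosporin, rose from 91.3 ± 6.84 to 174.6 ± 6.83 CPM (log2 fold change 0.93, edgeR adjusted p = 1.8e-06), and the calcium-binding Cib1 rose by 1.03 (adjusted p = 7.2e-06). Chp2, a calcineurin B homologue, fell to 41.0% of sham (-1.29, adjusted p = 0.00022). Rcan2 and Rcan3, paralogues of Rcan1 picked after their values were seen, went opposite ways. Rcan2 went from 623.6 ± 101 to 392.8 ± 44.8 CPM (-0.67, edgeR adjusted p = 0.00066), and all its sham libraries lay above all its TAC libraries. Rcan3 went from 22.36 ± 3.87 to 32.15 ± 3.43 CPM (0.52, edgeR adjusted p = 0.0031), and all its TAC libraries lay above all its sham libraries.

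Of 11 further NFAT genes and NFAT-binding or NFAT-phosphorylating partners, 4 were lower and 1 higher (median -0.13). With library size only, 1 was lower and 6 were higher, beside 12.7% and 51.0% of all genes tested. Those called lower with TMM scaling included Dyrk1a and Dyrk2, kinases that prime NFAT for nuclear export, at 61.1% (edgeR adjusted p = 0.00022) and 68.3% (adjusted p = 0.00022) of sham. Dyrk2 was not called with library size only (-0.19, adjusted p = 0.15). The scaffold gene Homer3 was the one called higher (1.03, adjusted p = 1.7e-05), and 25.41% of its exonic bases are shared with Ddx49.

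Of 14 calmodulin genes, other calmodulin-dependent kinases and CaMKII inhibitors, 8 were higher and 3 lower (median 0.33). Camk4, a nuclear kinase, was 0.788 to 1.41 CPM in sham and 4.06 to 7.85 CPM in TAC (log2 fold change 2.56, SE 0.22, edgeR adjusted p = 3.6e-06). Camk1 rose from 58.3 ± 3.29 to 91.8 ± 8.58 CPM (0.65, adjusted p = 3.0e-05). The CaMKII inhibitor gene Camk2n1 fell, as did the 4 CaMKII genes, from 55.8 ± 4.34 to 33.5 ± 3.29 CPM (-0.73, edgeR adjusted p = 2.4e-05). The other inhibitor gene, Camk2n2, named here after its values were seen, was scarce and went the other way. It rose from 0.824 ± 0.256 to 1.93 ± 0.435 CPM (1.22, edgeR adjusted p = 0.0018). Pnck, a kinase of the CaMKI group, fell to 51.9% (-0.95, edgeR adjusted p = 0.00017).

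Of 8 class IIa histone deacetylase and MEF2 pathway genes, through which CaMKII reaches transcription, 5 were lower and 1 higher (median -0.61), or 4 and 2 with library size only. Hdac5 went to 55.1% of sham (edgeR adjusted p = 4.6e-05) and Mef2d to 62.4% (adjusted p = 2.1e-05), with no overlap in either. Hdac7 was the one called higher (0.44, adjusted p = 0.0091), with overlapping groups.

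Of 5 genes for CaMKII substrates in heart muscle, 3 were lower and none higher (median -1.06). Pln, encoding the calcium pump inhibitor phospholamban, went from 2781 ± 536 to 515.0 ± 138 CPM (-2.43, edgeR adjusted p = 2.9e-06), and 64.7% of its exonic bases are shared with other genes. Ryr2, the calcium release channel, went to 42.3% of sham (-1.24, adjusted p = 1.6e-05).

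Of 9 genes known to respond to calcineurin or NFAT, 4 were higher and 3 lower (median 0.33). The largest log2 fold change was that of Acta1, named here after its values were seen (4.78, SE 0.73, edgeR adjusted p = 0.00027). Edn1, the endothelin-1 gene, rose from 3.92 ± 1.26 to 50.8 ± 13 CPM (3.72, edgeR adjusted p = 1.8e-06) and the cation channel gene Trpc6 from 0.198 ± 0.111 to 1.33 ± 0.272 CPM (2.79, adjusted p = 2.7e-05). The channel gene Trpc1 fell by 0.65 on the log2 scale (adjusted p = 0.00054; not called with library size only, adjusted p = 0.071). The beta myosin heavy chain gene Myh7 fell by 1.17 (adjusted p = 0.0015), with 13.34% of its exonic bases shared with antisense genes.

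**Figure D5:**
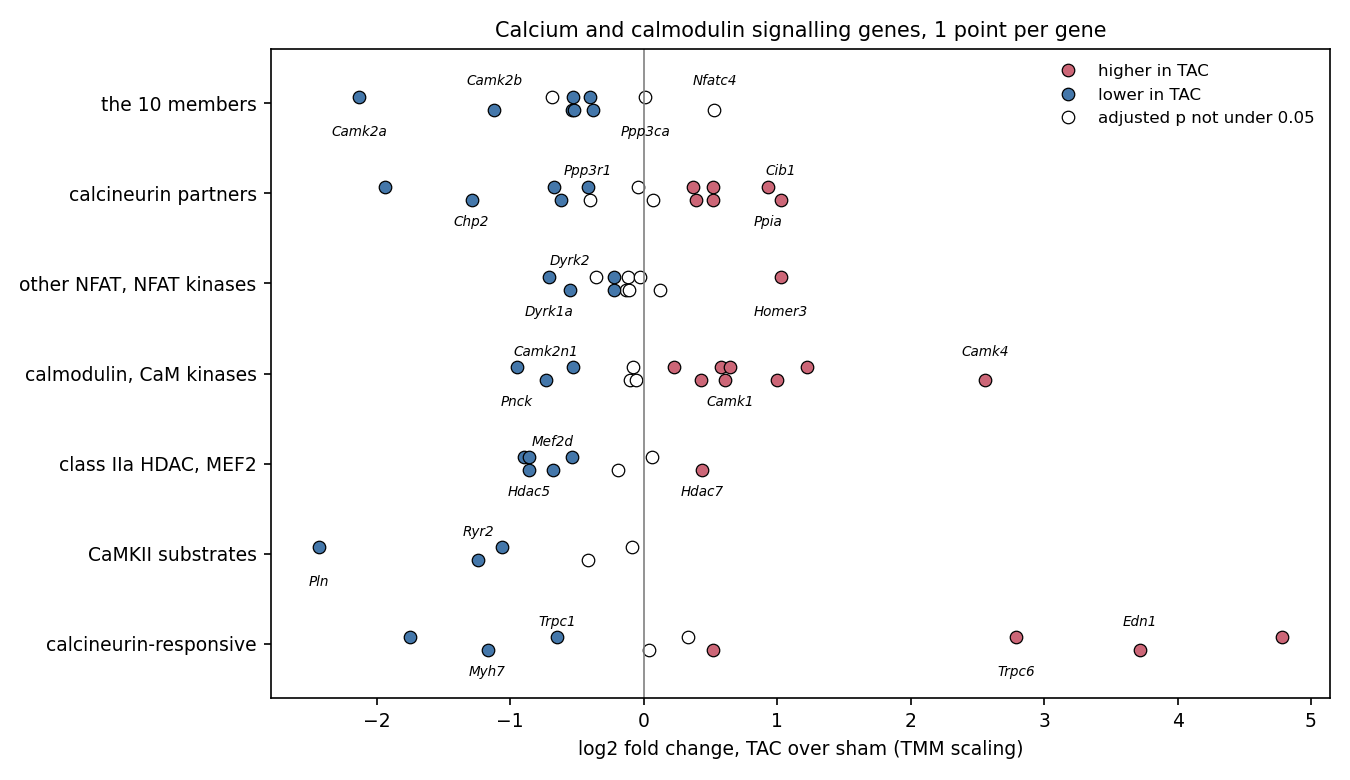
Each point is 1 gene at its log2 fold change, TAC over sham (x axis, TMM scaling), for the 10 members in the top row and the 61 tested genes of 6 lists below; red was called higher, blue lower and white neither. CaMKII substrates and class IIa HDAC or MEF2 genes lie mostly left of 0. Acta1 at 4.78 is the rightmost point, and Edn1 at 3.72, Trpc6 at 2.79 and Camk4 at 2.56 also lie far to the right.

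For the 3 members with the smallest adjusted p, the genes of the most similar profile over the 10 libraries were found by the same RMS difference. Camk2a was closest to Plxnb3 (0.113), a plexin receptor gene, to Hrc (0.158), a calcium-binding protein of the sarcoplasmic reticulum, and to Atp2a2 (0.174), its calcium pump, beside a median of 1.125 over all genes compared. Plxnb3, Hrc and Atp2a2 had log2 fold changes of -2.05, -1.98 and -1.98. That these lie near the value of Camk2a follows from the way the genes were picked. Camk2d was closest to Gga2 (0.043), Rabggta (0.052) and Selo (0.058), with a median of 0.373. Camk2b was closest to Klhdc8b (0.123), Dhrs7 (0.150) and Tom1l2 (0.151), with a median of 0.634.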

How the data were processed

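Each library came as a deposited table of raw counts by gene symbol, with no normalization by the authors. STAR, bcl2fastq and the mouse build mm10 are named without versions in the submitters' processing notes, and for the counting step neither tool nor strand setting is given in the sources used here. Without strand, reads of a gene and an antisense partner cannot be told apart. Each table ends in 5 tallies that name no gene (25.9% to 29.1% of all tallied reads), which stayed out of library sizes and tests. Of the symbols, 95.7% matched 1 gene of GENCODE M21 (GRCm38), the source of coordinates and exon lengths, and no member shares exonic bases with another gene.

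Sham and TAC libraries were compared with edgeR 4.0.16 (R 4.3.3): TMM factors, filterByExpr, quasi-likelihood test, group as the only term, Benjamini-Hochberg adjustment over all 15175 genes. Levels are TMM-normalised CPM. An SE is the log2 fold change divided by the square root of F. Ratios used counts per kb and exact permutation tests. The test script was checked on simulated data. Python 3.11.15 with scipy 1.17.1, numpy 2.4.6, pandas 2.3.3 and matplotlib 3.10.9 made the tables and figures.

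The members and lists were chosen with earlier results of these data known. Named genes were the 10 members, up to 2 called genes per direction of each pathway list with the smallest adjusted p, and 3 genes of closest profile (mean log2 CPM at least 1) for the 3 members with the smallest adjusted p. Exceptions are named as such. Alternatives were other scaling (library size, upper quartile, DESeq2 size factors), no or a stricter filter (1 CPM in 5 libraries), DESeq2 1.42.0, limma 3.58.1 voom with quality weights, a replicate block, removal of mitochondrial and haemoglobin genes, and each library or the 2 shallow sham libraries left out. Lengths of the longest coding transcript were added after the data were seen.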

Additional observations from a re-analysis of the deposited data

Results flagged for a closer look

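In groups of 5 libraries, a value is listed here when its gap to the next value, divided by the range of the group, was above 0.710 (Dixon's critical value). Of 38 groups tested 3 met this, and chance alone gives about 1 in 20. Rcan1 in sham replicate 5 was 502 CPM and the next sham value 221 CPM (gap over range 0.72). The Camk2g share of the CaMKII genes in sham replicate 3 was 37.7% and the next 34.3% (0.725). The log2 ratio of Camk2d to Camk2g in sham replicate 1 was -0.209 and the next -0.466 (0.929).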

How the results depend on the processing

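Over 20 alternative fits, Camk2a, Camk2b, Camk2d, Camk2g, Ppp3cb and Nfatc1 stayed called lower except that, with library size only, just Camk2a (-1.77) and Camk2b (-0.76) did. That scaling gave 2 members higher and 2 lower, 15 pathway genes lower, and 7741 genes higher and 1929 lower over all genes (80.1% of calls higher instead of 50.9%). One member, Nfatc4, was called higher with upper-quartile factors, DESeq2 and the replicate block, and 0 to 1 with a library left out. The replicate numbers did not pair the libraries: deviations of same-numbered libraries correlated at -0.036 to 0.08 and none correlated best with its own number. The block gave 8020 calls instead of 8616 and, for Nfatc4, 0.51 (adjusted p = 0.024). Ppp3ca was 0.38 and called with library size only (adjusted p = 0.00095), -0.0018 with limma voom and -0.0044 to 0.04 with a library left out, with -0.0013 without sham replicate 1. Log2 fold changes with a library left out ran from -1.20 to -1.03 for Camk2b, -0.57 to -0.50 for Camk2d, -0.55 to -0.46 for Camk2g, -0.43 to -0.34 for Ppp3cb, -0.86 to -0.16 for Rcan1, -0.45 to -0.30 for Nfatc1 and -0.65 to -0.46 for Nfatc2. Without the 2 shallow sham libraries the smallest possible exact p is 0.036. The 5 ratios that had passed all reached it, but with an adjusted p of 0.064 none passed. The differences there were -17.9 percentage points for the Camk2a share, 8.18 for Camk2d and 10.5 for Camk2g, and 0.481 for log2 Ppp3ca to Ppp3cb, 0.782 for Nfatc4 to Nfatc2, 0.0302 for Camk2d to Camk2g and -0.0148 for Nfatc1 to Nfatc2. The range with 1 library left out was -0.042 to 0.0271 for Camk2d to Camk2g and -0.486 to 0.051 for Rcan1 to the catalytic genes; the cause of these changes was not tested. The lowest member count was 84 (Nfatc4), and the part of depth in the spread of Nfatc4 was not tested.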

Other observations

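The counts and summed levels of the remaining marker lists, and the count and sum of the ventricular list, were as follows. Of 7 endothelial markers 2 were called higher and 1 lower, with sums of 810 to 1140 CPM in sham and 767 to 1050 CPM in TAC. Of 6 smooth muscle and pericyte markers 3 were higher (290 to 422 and 555 to 776 CPM). All 5 erythroid genes were higher (136 to 300 and 298 to 2550 CPM), and TAC replicate 3 held the highest sum. All 3 adipocyte markers tested were lower (10.8 to 46.4 and 0.274 to 8.31 CPM). Of 4 mesothelial markers 1 was higher (74.4 to 274 and 108 to 263 CPM), and of 4 B lymphocyte markers the 1 tested was higher (0.263 to 1.86 and 1.13 to 2.90 CPM). Of 3 ventricular markers tested 1 was higher and 1 lower (21.2 to 540 and 17.9 to 327 CPM).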
